A study of Mus musculus with 6 samples.

Results

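The genes described are 10 neuropeptide precursors of the mouse brain, Npy, Sst, Penk, Pdyn, Tac1, Cck, Crh, Gal, Avp and Oxt. They were chosen by symbol, as probesets paired with exactly 1 gene, out of 19938 genes named on the array. All 10 were found, each on 1 probeset. RNA was taken from the whole brain of male C57BL/6J pups, an inbred strain, at postnatal day 7. Pups received ethanol or the saline vehicle under the skin, and the ethanol group had 2 doses of 2.5 g/kg of a 20% solution, given 2 h apart. Brains were taken 4 h after the first dose. Each array held a pool of 3 males from different litters, with 2 ethanol pools (arrays 2 and 4), 4 saline pools (arrays 1, 3, 5 and 6) and 18 mice in all, per the labels and the series design. Every pup, saline pups included, was handled away from its dam during treatment, and each ethanol pup had a saline littermate.

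Neuropeptides are cut from longer precursors by proprotein convertases inside dense-core vesicles, and are released on strong firing to act on G-protein-coupled receptors. In the forebrain, neuropeptide Y (Npy) and somatostatin (Sst) mark classes of inhibitory interneurons, and cholecystokinin (Cck) is made by interneurons and pyramidal cells. Striatal projection neurons make enkephalin (Penk), or dynorphin (Pdyn) and substance P (Tac1). Galanin (Gal), corticotropin-releasing hormone (Crh), oxytocin (Oxt) and vasopressin (Avp) are known for their roles in the hypothalamus, where Crh starts the hormonal stress response and Oxt and Avp supply the posterior pituitary. Several of these promoters are known to answer to cyclic AMP and neuronal firing through CREB, a transcription factor that binds the cyclic AMP response element (CRE). That element was first defined in the somatostatin promoter.

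Promoters of 8 of the 10 members were searched. Those below are shown because a CRE, a CRE half-site or an E-box, the site of bHLH factors such as CLOCK, was found in them. They are the 250 bases before the annotated start, from RefSeq on build GRCm38.p6, printed 5′ to 3′ on the gene's strand, with motif matches in capitals. Sst lies at chr16:23890845-23891094 on the minus strand, Tac1 at chr6:7554811-7555060 on the plus strand, Cck at chr9:121495695-121495944 on the minus strand and Avp at chr2:130582589-130582838 on the minus strand.
Sst: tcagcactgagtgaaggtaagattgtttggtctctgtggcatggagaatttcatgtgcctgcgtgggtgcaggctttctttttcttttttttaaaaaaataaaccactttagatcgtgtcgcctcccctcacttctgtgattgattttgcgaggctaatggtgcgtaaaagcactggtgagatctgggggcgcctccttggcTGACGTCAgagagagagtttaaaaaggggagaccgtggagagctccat
Tac1: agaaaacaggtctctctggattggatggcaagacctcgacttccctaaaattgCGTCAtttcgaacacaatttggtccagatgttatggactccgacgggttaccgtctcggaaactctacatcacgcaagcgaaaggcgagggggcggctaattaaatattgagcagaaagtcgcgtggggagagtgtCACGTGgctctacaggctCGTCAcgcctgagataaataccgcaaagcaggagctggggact
Cck: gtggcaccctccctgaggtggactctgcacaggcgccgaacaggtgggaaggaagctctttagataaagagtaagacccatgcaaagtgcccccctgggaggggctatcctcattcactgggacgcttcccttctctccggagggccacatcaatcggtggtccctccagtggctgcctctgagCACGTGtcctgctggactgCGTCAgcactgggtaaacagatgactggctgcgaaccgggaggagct
Avp: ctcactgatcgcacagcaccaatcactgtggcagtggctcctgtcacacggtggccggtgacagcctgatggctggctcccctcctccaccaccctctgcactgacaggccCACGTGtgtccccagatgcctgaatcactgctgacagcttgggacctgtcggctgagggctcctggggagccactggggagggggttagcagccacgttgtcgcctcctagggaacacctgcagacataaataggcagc
The letters searched on both strands were TGACGTCA for the full CRE, TGACG for its half-site and CACGTG for the E-box. A full CRE holds a half-site on each strand. The full CRE was found in Sst only among the 8 members with a promoter in the table (9 windows, since Pdyn has 2), starting 48 bases before the start. It stood in 1.55% of all 32851 promoter windows of this length. Half-sites outside a full CRE were found in Tac1 and Cck, and any half-site in 17.8% of all windows. The E-box was found in Tac1, Cck and Avp and in 6.02% of all windows. In Tac1 and Cck an E-box lay 61 and 66 bases before the start and a half-site 43 and 47 bases before it. These matches describe letters in a window and are not measured binding sites. RefSeq sequences of Penk and Crh were not used here, so their promoters were not searched.

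Levels are log2 intensities as the authors deposited them, with group means ± SD. A change is the ethanol mean minus the saline mean on the log2 scale, with the SE of the limma fit to the 2 and 4 arrays. Intensity depends on the probes, so levels were compared between arrays for 1 gene and not between genes. To place the background, the 95th percentile of 1194 olfactory and vomeronasal receptor genes was taken, which was 6.21. Genes with a mean below it are called near background. The brain label was checked on neuronal markers, of which 8 of 8 were above background. On the first principal component (40.9% of the variance) saline array 3 was far from the rest, at 13.5. Saline arrays 1, 5 and 6 had -2.13, 2.95 and -0.19. Ethanol arrays 2 and 4 lay at the opposite end from saline array 3, at -6.61 and -7.49. Precision is limited by how few arrays there are.

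None of the 10 neuropeptide genes passed the limma test at an adjusted p of 0.05. Of the 14953 genes tested, 12 or 0.0803% passed. These were 9 higher (0.0602%) and 3 lower (0.0201%), or 7 and 1 with each array centred on its median, so that none among 9 tested members lies near the background share. Gal and Oxt had the lowest levels relative to saline, at 85.5% and 84.6%, and Crh was the 1 member with a mean above that of saline, at 108%. At an unadjusted p under 0.05 in this limma fit there were 2 members, Gal and Oxt, both lower. By that rule 8.44% of all tested genes were lower and 3.85% higher. The median change of the 9 tested members was -0.09, with 8 of 9 below 0, and over all tested genes the median was -0.02, with 58.6% below 0. In whole-brain RNA, fewer cells of a type and less RNA per cell cannot be told apart.

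**Figure D1:**
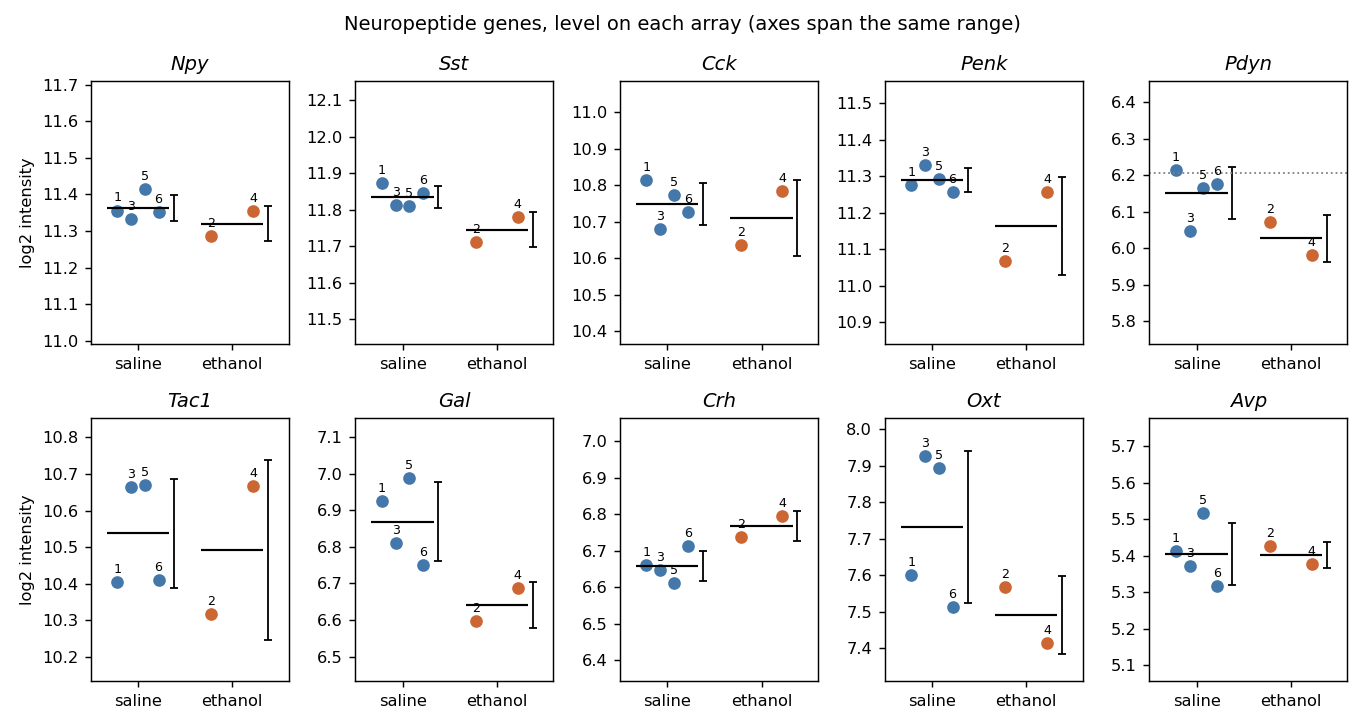
Level of each neuropeptide gene on each array (y axis, log2 intensity, with the same span in every panel), for saline (blue) and ethanol (orange) pools. Points carry the array number, horizontal lines are group means, bars are SD, and the dotted line is the background limit of 6.21. Ethanol points lie below all saline points for Sst and Gal and above them for Crh.

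The interneuron and cortical peptides came first. Npy, a peptide that promotes feeding and dampens excitability, had 11.36, 11.33, 11.41 and 11.35 on saline arrays 1, 3, 5 and 6 and 11.29 and 11.35 on ethanol arrays 2 and 4. The groups overlapped, with ethanol array 2 lowest. The change was -0.04 ± 0.06 (limma adjusted p = 0.816), or 97.0% of the saline level, with a 95% confidence interval from 88.7% to 106%. It ran from -0.077 without ethanol array 4 to -0.0098 without ethanol array 2. Sst, which inhibits hormone release and marks dendrite-targeting interneurons, had 11.87, 11.81, 11.81 and 11.85 on the saline arrays and 11.71 and 11.78 on the ethanol arrays. Both ethanol arrays lay below all saline arrays, by a narrow margin on array 4. The change was -0.09 ± 0.06 (limma adjusted p = 0.570), or 94.0% of saline with an interval from 86.1% to 103%. It was -0.12 without ethanol array 4 and -0.056 without ethanol array 2. Cck, which modulates transmission at cortical and hippocampal synapses, had 10.81, 10.68, 10.77 and 10.73 on the saline arrays and 10.64 and 10.78 on the ethanol arrays. Its ethanol arrays spanned almost the whole saline range and passed its lower end. The change was -0.04 ± 0.07 (limma adjusted p = 0.865), or 97.4% of saline with an interval from 88.1% to 108%.

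Inhibitory neuron markers beside Npy and Sst (10 of 10 above background) had a summed linear intensity of 10939 to 11669 on saline arrays and 11009 to 11329 on ethanol arrays. Their median change was -0.04, with 6 of 10 below 0 and 4 above. None passed in limma, and 3 on the lower side and 0 on the higher had an unadjusted p under 0.05, by which 8.44% and 3.85% of all tested genes were lower and higher. The 3 were Pvalb, the parvalbumin gene of fast-spiking interneurons, at -0.20 ± 0.07 (limma adjusted p = 0.281), the lineage factor Dlx5 at -0.20 ± 0.08 (0.354) and Lhx6. The related factors Dlx1 and Dlx2 had 0.13 ± 0.07 and 0.11 ± 0.07, and Reln, which encodes the secreted protein reelin, had 0.09 ± 0.06 with both ethanol arrays above all saline arrays. Lhx6, a factor of the lineage that gives rise to Sst interneurons, had a change of -0.17 ± 0.07 (limma adjusted p = 0.336), with both ethanol arrays below all saline arrays. Cort, the close relative of Sst made by cortical interneurons, had -0.19 ± 0.07 (limma adjusted p = 0.327), also with both arrays below. The synthetic enzyme genes of GABA had -0.01 ± 0.06 for Gad2 and 0.01 ± 0.07 for Gad1. The part of cell number in the Sst values was not tested.

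The striatal opioid and tachykinin genes followed, and the ethanol arrays lay further apart for Penk and Tac1 than for Pdyn. Penk, the enkephalin precursor of indirect-pathway striatal neurons, had 11.28, 11.33, 11.29 and 11.26 on the saline arrays and 11.07 and 11.26 on the ethanol arrays. Ethanol array 2 was well below the saline range, and array 4 was level with its lower end. The change was -0.13 ± 0.07 (limma adjusted p = 0.475), or 91.6% of saline with an interval from 82.9% to 101%. It was -0.22 without ethanol array 4 and -0.03 without ethanol array 2, so that array 2 decides its size. Pdyn, the precursor of the kappa-opioid ligand dynorphin, was near background, with 6.21, 6.05, 6.17 and 6.18 on the saline arrays and 6.07 and 5.98 on the ethanol arrays. Ethanol array 2 lay above saline array 3, so the groups overlapped. The change was -0.12 ± 0.07 (limma adjusted p = 0.481), between values within or at the edge of the background range. It was -0.17 without ethanol array 2 and -0.078 without ethanol array 4. Tac1, the precursor of substance P and neurokinin A, had 10.40, 10.66, 10.67 and 10.41 on the saline arrays and 10.32 and 10.67 on the ethanol arrays. Its values fell at a lower level on saline arrays 1 and 6 and ethanol array 2, and at a higher level on the other 3 arrays, in both treatment groups. The change of Tac1 was -0.05 ± 0.11 (limma adjusted p = 0.903), with an interval from 82.6% to 114% of saline. It turned to 0.13 without ethanol array 2 and was -0.22 without ethanol array 4. Striatal neuron markers (7 of 9 analysed, all above background) had a summed intensity of 4171 to 4353 on saline and 4206 to 4237 on ethanol arrays. Their median change was 0.01, with 3 below 0 and 4 above. Single markers ran from -0.21 to 0.07, and the smallest limma adjusted p among them was 0.175. None passed in limma, and 1 on the lower side and 0 on the higher had an unadjusted p under 0.05. By that rule 8.44% and 3.85% of all tested genes were lower and higher. Both ethanol arrays lay below all saline arrays for 2 markers and above for 1, against 14.9% and 7.68% of all tested genes.

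The hypothalamic peptides included the members furthest from their saline level. Gal, whose product mostly inhibits neurons, had 6.93, 6.81, 6.99 and 6.75 on the saline arrays and 6.60 and 6.69 on the ethanol arrays. Both ethanol arrays lay below all saline arrays. The change was -0.23 ± 0.07 (limma adjusted p = 0.250), with an interval from 76.4% to 95.6% of saline. Crh had 6.66, 6.65, 6.61 and 6.71 on the saline arrays and 6.74 and 6.80 on the ethanol arrays, which lay above all saline arrays. Its change was 0.11 ± 0.06 (limma adjusted p = 0.493), with an interval from 98.6% to 118% of saline. Oxt, the hormone of milk let-down, labour and social behaviour, had 7.60, 7.93, 7.89 and 7.51 on the saline arrays and 7.57 and 7.42 on the ethanol arrays. Saline arrays 3 and 5 were high, saline arrays 1 and 6 lay near the ethanol arrays, and the groups overlapped at saline array 6. The change of Oxt was -0.24 ± 0.11 (limma adjusted p = 0.396), with an interval from 71.8% to 99.7% of saline. Its change ran from -0.32 to -0.17 as single arrays were left out.

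Avp, the antidiuretic hormone gene and the neighbour of Oxt in the RefSeq annotation, was not measurable above background. It had 5.41, 5.37, 5.52 and 5.32 on the saline arrays and 5.43 and 5.38 on the ethanol arrays, and 56.7% of the olfactory and vomeronasal receptor genes had a mean at or below its own. Its mean of 5.40 lay under the limit of 5.55 that removed the dimmest 25% of genes, so Avp was not tested. Its ethanol mean was 5.40 ± 0.04 (SD, n = 2) and its saline mean 5.40 ± 0.08 (SD, n = 4). Oxt, which derives from the same ancestral gene, was above background on all 6 arrays.

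The 2 ethanol arrays did not overlap the saline arrays in 3 of the 9 tested members, being below in Sst and Gal and above in Crh. Over all tested genes that share was 22.6%, with 14.9% below and 7.68% above. With 9 members, 3 is near that background.

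**Figure D2:**
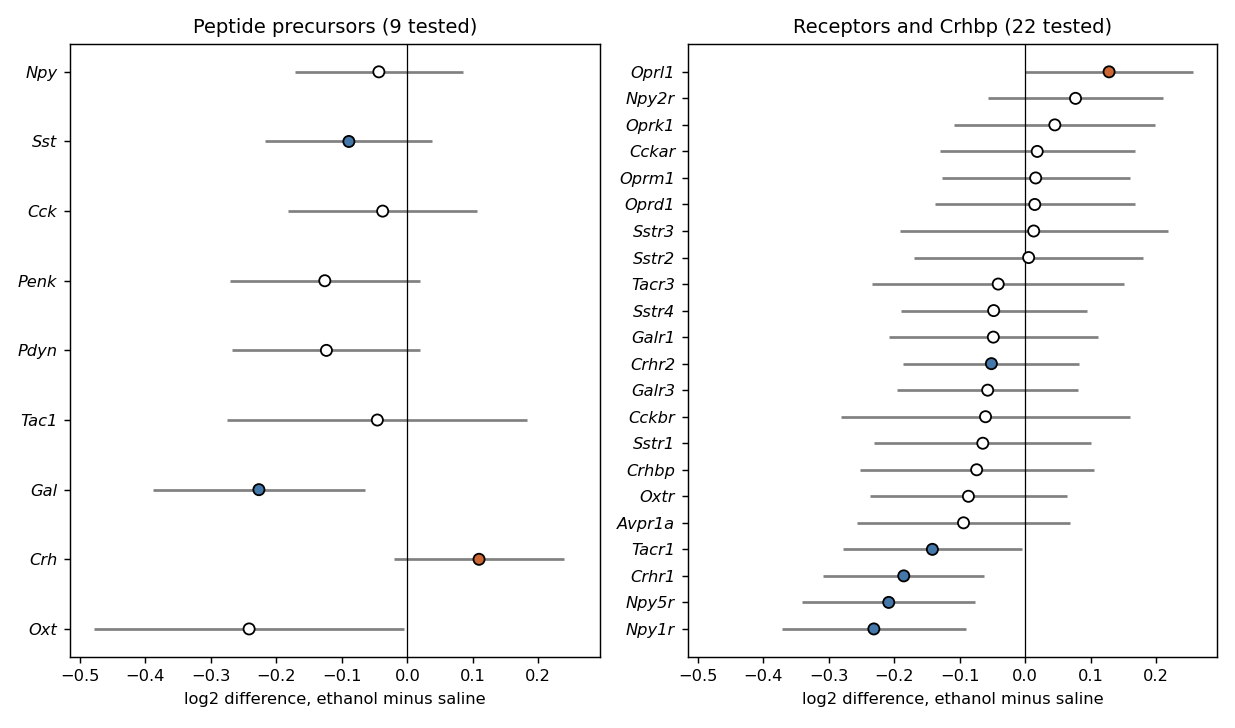
Change of each tested precursor gene (left) and each tested receptor gene of the peptide families, Oprl1 included, together with Crhbp (right), as the log2 difference, ethanol minus saline (x axis), with the 95% confidence interval of the limma fit. Filled points have both ethanol arrays below (blue) or above (orange) all saline arrays. The interval of Gal runs from -0.39 to -0.06 and that of Npy from -0.17 to 0.09.

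Markers of the hypothalamus and the pituitary were read beside these peptides, and none passed in limma. Hypothalamic markers (12 of 13 analysed, 6 near background, 8 of the 13 also listed as peptide precursors) had a summed intensity of 959 to 1007 on saline and 906 to 949.8 on ethanol arrays. Their median change was -0.11, with 9 of 10 tested members below 0, and 0 had an unadjusted p under 0.05. Both ethanol arrays lay below all saline arrays for 1 of them, the near-background Sim1, and above for 1, the orexin gene Hcrt, at 0.14 ± 0.08. Over all tested genes 14.9% lay below and 7.68% above in this way. Otp, a factor needed for the neurons that make Oxt, Avp and Crh, had a change of -0.001 ± 0.059. Pituitary markers (8 of 10 analysed) had a summed intensity of 756 to 948 on saline and 426 to 662 on ethanol arrays, with Prl, Tshb, Fshb, Lhb and Gnrhr near background. Of 5 tested, among them the near-background Fshb and Lhb, 4 had an unadjusted p under 0.05, all lower. By that rule 8.44% of all tested genes were lower and 3.85% higher. Cga, the shared alpha subunit of the glycoprotein hormones, had 7.89, 7.66, 7.84 and 7.93 on the saline arrays and 7.19 and 6.06 on the ethanol arrays. Its change was -1.20 ± 0.21 (limma adjusted p = 0.0630), and -1.77 without ethanol array 2 and -0.63 without ethanol array 4. Growth hormone (Gh) had 8.39, 7.70, 8.20 and 8.52 on the saline arrays and 7.65 and 5.72 on the ethanol arrays. For both genes the ethanol arrays lay below all saline arrays. Ethanol array 4, the lowest for Gh and Cga, was also the lowest for Oxt, while Gal was lower on ethanol array 2. Among the saline arrays the order of Oxt was the reverse of that of Gh and Cga. Gh and Cga were lowest on saline array 3 and highest on saline array 6. Oxt was highest on saline array 3, at 7.93, and lowest on saline array 6, at 7.51. The part of dissected hypothalamus or pituitary in the Gal and Oxt values was not tested.

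The peptide genes differed in how far the saline pools spread. Sst, Penk and Npy had saline SDs of 0.030, 0.032 and 0.036, against a median of 0.074 over all tested genes. Among the 1000 tested genes nearest in mean level, 19.0%, 18.8% and 24.5% had an SD as small or smaller. By that measure the lowest of the members was Crh, at 9.7%, with a saline SD of 0.042. Oxt and Tac1 lay at the other end, with saline SDs of 0.21 and 0.15, and 98.1% and 98.2% of genes of like level had an SD as small or smaller. Both were high on saline arrays 3 and 5 and low on 1 and 6. The median of the olfactory and vomeronasal receptor genes was 5.39 and 5.41 on saline arrays 3 and 5. It was 5.28 and 5.36 on the other saline pools, 1 and 6, and 5.27 and 5.37 on ethanol arrays 2 and 4. The part of this background level in the Oxt and Tac1 values was not tested.

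**Figure D3:**
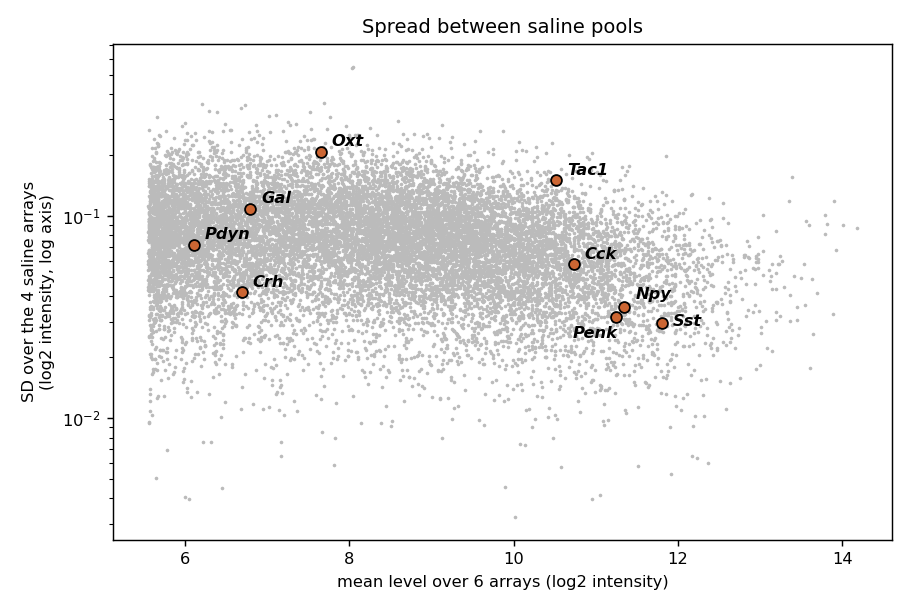
SD over the 4 saline arrays (y axis, log2 intensity on a log axis) against the mean level over 6 arrays (x axis, log2 intensity) for all tested genes (grey) and the 9 tested neuropeptide genes (orange). Oxt and Tac1 lie near the upper edge of the cloud, at 0.21 and 0.15, and Sst, Penk and Npy in its lower part.

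For the 3 members with the widest range over the 6 arrays, Oxt, Gal and Tac1, the genes of most like pattern were found by the root mean square difference after each gene was centred on its mean. The closest to Oxt were Krt90, Agtr2 and Bik, at 0.018, 0.041 and 0.046 log2 units, where the median gene stood at 0.20. Krt90, a keratin gene, and Bik, a pro-apoptotic gene, were near background, and Agtr2, an angiotensin receptor gene, had a mean level of 6.26. The closest to Tac1 were the splicing factor gene Phf5a (0.034), the chemokine gene Ccl11 (0.042) and, near background, Olfr1188 (0.045), with the median gene at 0.17. The closest to Gal were the mitochondrial ribosomal gene Mrpl51 (0.032), Gm12359 (0.036) and, near background, Ccdc87 (0.037), with the median gene at 0.14. None of these 9 genes passed in limma. Likeness over 6 arrays among so many genes is a description only.

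**Figure D4:**
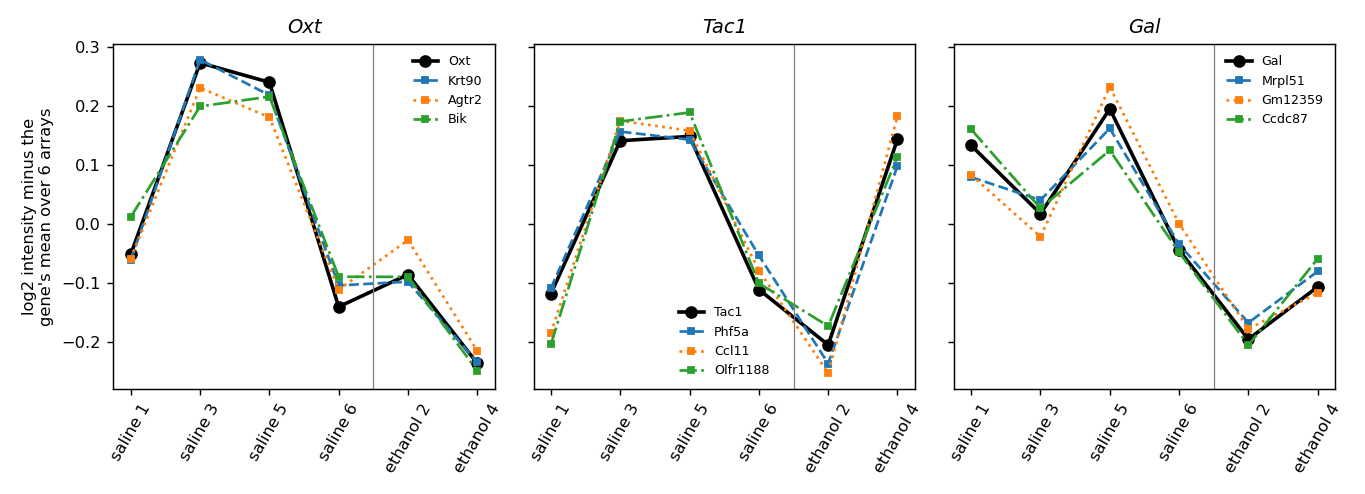
Level on each array minus the gene's mean over the 6 arrays (y axis, log2 units) for Oxt, Tac1 and Gal (black) and the 3 genes of most like pattern to each (coloured). Oxt and Tac1 are high on saline arrays 3 and 5, and Tac1 also on ethanol array 4, while Gal is lowest on the 2 ethanol arrays.

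Among genes that process and store peptides, 21 of 22 listed were tested and none passed in limma. Vgf was the 1 member with an unadjusted p under 0.05, and it was lower, where 8.44% of all tested genes were lower and 3.85% higher. The list was assembled with earlier results of these data known, as were the lists below. Its median change was -0.01, with 12 below 0 and 9 above. Vgf, an activity-induced granin precursor, had 9.09, 8.93, 9.07 and 9.07 on the saline arrays and 8.84 and 8.91 on the ethanol arrays, all ethanol values being lower. Its change was -0.17 ± 0.07 (limma adjusted p = 0.336). Pam, which amidates the tail of Npy, Cck, Oxt and Avp peptides, had 0.09 ± 0.06 (0.540). The carboxypeptidase gene Cpz and the convertase Pcsk4 had -0.16 ± 0.08 (0.441) and -0.11 ± 0.07 (0.570). The main neuroendocrine convertase Pcsk1 had -0.001 ± 0.080, and Cpe, which trims basic residues from peptide ends, had -0.02 ± 0.06.

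No receptor gene of the peptide families passed in limma either. Of 29 listed genes (Crhbp and 28 receptors, among them the opioid family member Oprl1, whose ligand is none of the 10 peptides), 22 were tested, 14 below 0 and 8 above, with a median of -0.05. An unadjusted p under 0.05 was reached by 4 on the lower side and 0 on the higher side, against 8.44% and 3.85% of all tested genes. Both ethanol arrays lay below all saline arrays for 5 and above for 1, which was Oprl1, against 14.9% and 7.68% of all tested genes. Npy1r, the receptor of Npy on postsynaptic neurons, had 8.43, 8.28, 8.40 and 8.31 on the saline arrays and 8.11 and 8.14 on the ethanol arrays. The ethanol arrays lay below all saline arrays. The change was -0.23 ± 0.06 (limma adjusted p = 0.193). Npy5r, which shares a locus with Npy1r in mammals, had 6.35, 6.35, 6.32 and 6.45 on the saline arrays and 6.16 on each ethanol array. Its change was -0.21 ± 0.06 (limma adjusted p = 0.205), again without overlap. The presynaptic Npy2r had 0.08 ± 0.06 in the opposite direction.

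Crhr1, the main brain receptor of Crh, had 9.20, 9.19, 9.19 and 9.18 on the saline arrays and 9.03 and 8.98 on the ethanol arrays. The saline SD was 0.008 and the groups did not overlap, and the change was -0.19 ± 0.06 (limma adjusted p = 0.222). Crh itself had a mean above saline, so ligand and receptor lay on opposite sides of 0, neither passing. Crhr2, near background, had -0.05 ± 0.06, and the binding protein gene Crhbp, which sequesters Crh, had -0.07 ± 0.08. Tacr1, the substance P receptor, had 7.73, 7.82, 7.88 and 7.81 on the saline arrays and 7.64 and 7.70 on the ethanol arrays. Its change was -0.14 ± 0.06 (limma adjusted p = 0.390), and Tacr3 had -0.04 ± 0.09.

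Among opioid receptors, the nociceptin receptor gene Oprl1 had 10.01, 9.96, 10.01 and 9.96 on the saline arrays and 10.16 and 10.07 on the ethanol arrays, higher on both. Its change was 0.13 ± 0.06 (limma adjusted p = 0.407). Its ligand comes from Pnoc, not from Penk or Pdyn, and Pnoc had -0.13 ± 0.06 (0.408). The receptors of enkephalin and dynorphin had changes near 0, with 0.02 ± 0.07 for Oprm1, 0.01 ± 0.07 for Oprd1 and 0.05 ± 0.07 for Oprk1. Somatostatin receptors had -0.06 ± 0.08 for Sstr1, 0.005 ± 0.081 for Sstr2, 0.01 ± 0.09 for Sstr3 and -0.05 ± 0.07 for Sstr4. The cholecystokinin receptors had -0.06 ± 0.10 for Cckbr and 0.02 ± 0.07 for the near-background Cckar. Galanin receptors were near background, with -0.05 ± 0.07 for Galr1 and -0.06 ± 0.06 for Galr3. Avpr1a and Oxtr, through which vasopressin and oxytocin act in the brain, had -0.09 ± 0.07 and -0.09 ± 0.07. Avpr1a ran from -0.18 without ethanol array 4 to -0.0036 without ethanol array 2, and Oxtr from -0.13 without ethanol array 2 to -0.042 without ethanol array 4. Npy4r, Npy6r, Sstr5, Tacr2, Galr2, Avpr1b and Avpr2 were too dim to be tested.

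Other peptide precursors were read in the same way. Of 42 listed genes, 29 were tested, 10 were dim and 3 were not analysed here, and 12 of the tested genes were near background. None passed in limma, and 5 on the lower side and 0 on the higher had an unadjusted p under 0.05, against 8.44% and 3.85% of all tested genes. Of the tested genes 21 lay below 0 and 8 above, and the median was -0.06. Adcyap1, which encodes PACAP, a peptide that raises cyclic AMP and is released in stress, had 8.85, 8.56, 8.69 and 8.73 on the saline arrays and 8.22 and 8.43 on the ethanol arrays. Both ethanol arrays were below all saline arrays, and the change was -0.39 ± 0.08 (limma adjusted p = 0.102). Ucn2, a relative of Crh that was near background, had -0.28 ± 0.08 (limma adjusted p = 0.222). Apln, the ligand of the apelin receptor, had -0.25 ± 0.10 (0.336), with 7.61 on ethanol array 2 and 8.02 on ethanol array 4, the latter within the saline range. Apln had -0.45 without ethanol array 4 and -0.05 without ethanol array 2.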

How the data were processed

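RNA from 2 ethanol and 4 saline pools of whole brains was hybridised to Affymetrix whole-transcript arrays, per the labels. Each probeset has 1 deposited value on an array, taken to be log2 from the range of 4.10 to 14.9; the base is not stated. Partek 6.6 is named in the submitters' processing notes, and no source used here gives the background correction, normalization or summarisation, so a shift that follows one of these steps would stay in the values. The platform annotation named 1 gene for 21789 of 35556 probesets, several for 1621 and none for 12146, and 21698 matched a current RefSeq record (GRCm38.p6), which updated symbols. Each of 19938 genes was represented by its probeset of highest mean, and the dimmest 25% were left out, which left 14953.

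Genes were fitted with limma 3.58.1 (lmFit, eBayes) in R 4.3.3, with no term but treatment, two-sided, with Benjamini-Hochberg adjustment over all tested genes. Residual degrees of freedom were 4, the prior added 8.10, and the fit was tested on simulated data. Replicates are pools of different animals. Littermates are split between groups but share no array number. The members, lists and named genes (all 10 members, the tested receptors, and in each other list the 4 genes of smallest p) were chosen with earlier results of these data known. Marker genes named beside a result, Abcb1a, Pnoc, Pcsk1 and Cpe were chosen after their values were seen. Alternatives were other filters on dim genes, other probeset rules, array centring, quantile normalization, other variance models and leaving out each array.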

Additional observations from a re-analysis of the deposited data

Results flagged for a closer look

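Of 43 genes whose 4 saline arrays were checked for a single distant array, 1 stood out and none of the 10 neuropeptide genes did. Vgf was at 8.93 on saline array 3, while the other 3 saline arrays lay between 9.07 and 9.09. Chance flags about 1 in 20 such groups.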

How the results depend on the processing

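No neuropeptide gene passed the limma test under any of the 15 alternatives, and the count of members passing was 0 in each. Of 133 recomputed changes of members, 131 kept their direction and side of the threshold. The other 2 were those of Cck, which ranged from -0.11 to 0.036 as single arrays were left out, and of Tac1, from -0.22 to 0.13. The smallest adjusted p of a member was 0.207 for Gal, without saline array 3, and the smallest for Oxt was 0.282. Which members had an unadjusted limma p under 0.05 depended on the alternative. Beside Gal and Oxt, it was reached in some alternative by Sst, Penk, Pdyn and Crh. It was reached in none by Npy, Tac1, Cck and Avp. Avp could be fitted only with no filter on dim genes, with a change of -0.002. The count over all genes was 12, and 56 with array weights, 52 with the dimmest 50% left out, 43 with a trend in the variance prior and 23 after quantile normalization. It was 0 over every probeset that was not dim and 0 without a variance prior in limma, with 2618 and 1535 at an unadjusted p under 0.05. It ranged from 4, without ethanol array 4, to 16 as single arrays were left out. Among the other named genes, 458 of 480 recomputed changes kept direction and side. Sstr2 turned to -0.032 with array weights. As single arrays were left out, the changes ranged from -0.064 to 0.074 for Sstr2, -0.14 to 0.17 for Sstr3, -0.13 to 0.035 for Sstr4, -0.0045 to 0.062 for Cckar, -0.15 to 0.032 for Cckbr, -0.016 to 0.061 for Oprd1, -0.071 to 0.16 for Oprk1, -0.018 to 0.043 for Oprm1 and -0.10 to 0.022 for Tacr3. Other changes kept their sign but moved by over 1.5 times from the change over all 6 arrays. These ranged from -0.22 to -0.098 for Cpz, -0.16 to -0.062 for Pcsk4, -0.13 to -0.025 for Crhbp, -0.065 to -0.022 for Crhr2, -0.096 to -0.0073 for Galr1, -0.096 to -0.019 for Galr3, -0.11 to -0.016 for Sstr1 and -2.48 to -0.55 for Gh, beside the ranges given with Apln, Avpr1a, Oxtr, Cga and the members. With smaller moves, Adcyap1 ranged from -0.49 to -0.28, Oprl1 from 0.087 to 0.17 and Npy2r from 0.059 to 0.10. The 6 that newly passed were those of Adcyap1 with array weights (limma adjusted p = 0.0459), Cga (4) and Gh (1). The causes of these moves were not tested. No paired analysis was possible because the ethanol and saline arrays share no replicate number.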

Other observations

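Pomc, the precursor of ACTH and beta-endorphin made in the pituitary and the arcuate nucleus, was too dim to be tested and was singled out after its values were seen. It had a mean of 5.58 ± 0.06 (SD, n = 4) on saline arrays and 5.27 ± 0.09 (SD, n = 2) on ethanol arrays, both ethanol arrays lying below all saline arrays within the background range. Markers of other brain cells stood beside the peptide genes as follows. Excitatory neuron markers had a median change of 0.03 over 7 tested genes, astrocyte markers -0.02 over 8, oligodendrocyte markers -0.05 over 8, microglia markers -0.04 over 7, vessel and blood markers -0.03 over 5, choroid plexus markers -0.002 over 6 and pan-neuronal markers -0.02 over 8. None of these genes passed in limma, and in the same order 1, 1, 2, 1, 1, 1 and 1 of them had an unadjusted p under 0.05, where 12.3% of all tested genes did. The 1 among vessel and blood markers, Abcb1a, was higher on ethanol arrays, and the others were lower.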
